A study of Mus musculus with 10 samples.

Results

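Complement genes that hepatocytes express were examined in the livers of mice given an antisense oligonucleotide (ASO) against miR-122 and of mice given saline. The set was fixed by gene symbol and held 9 genes, of which 7 (Hc, C6, C8a, C8b, C9, Cfb and Mbl2) each had 1 probe that the array annotation assigns to that gene alone, out of 18012 genes with such a probe. C3 and C4b were not analysed here, because no single-gene probe carried their symbols, and a probe shared by C4a and C4b was not used. The ASO group was 5 mice, named in their labels as male C57Bl/6, that received the ASO (2′-O-methoxyethyl sugars, phosphorothioate backbone) by intraperitoneal injection at 50 mg/kg, 2 times a week over 4 weeks. The saline group was 5 mice injected on the same schedule with saline. Their labels give no sex or strain, and no labels give an age. All livers were collected 2 days after dosing ended, and each mouse had its own 1-colour CodeLink array. No oligonucleotide of another sequence was given to the controls, so effects of the chemistry and of the miR-122 sequence cannot be told apart.

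Complement is a cascade of plasma proteins that marks microbes and damaged cells for removal, and the liver is the main source of most of its circulating factors. Antibody, surface sugars or spontaneous turnover start the classical, lectin and alternative routes, which meet at C3 and then at C5. Cleaved C5 binds C6 and C7, C8 joins them, and many copies of C9 complete the membrane attack complex, a pore in the target membrane. In mice, Hc encodes C5, C8a and C8b encode chains of C8, Cfb supplies the protease of the alternative convertase, and Mbl2 encodes a mannose-binding lectin that starts the lectin route. miR-122 is the most abundant microRNA of hepatocytes, and the study blocked it to ask which liver messenger RNAs change.

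The promoters of C9 and Hc are shown because these were the genes whose ASO and saline mice did not overlap. Both windows hold 250 bases before the annotated start and 50 bases from it onward, on the strand of the gene, as RefSeq gives them for GRCm38.p6. The C9 window is chr15:6445096-6445395 (plus strand) and the Hc window is chr2:35061363-35061662 (minus strand). Capitals mark the motifs searched on both strands, with a motif of the opposite strand in capitals as its reverse complement. The TATA box was searched as TATAAA. The CCAAT box was searched by the letters of its name. An element of the HNF1 type was searched as GTTAAT, and an element of the HNF4 type was searched as CAAAGT. A site of the C/EBP type was searched as TTGCNNAA. None of these marks overlap each other in the windows shown.
C9: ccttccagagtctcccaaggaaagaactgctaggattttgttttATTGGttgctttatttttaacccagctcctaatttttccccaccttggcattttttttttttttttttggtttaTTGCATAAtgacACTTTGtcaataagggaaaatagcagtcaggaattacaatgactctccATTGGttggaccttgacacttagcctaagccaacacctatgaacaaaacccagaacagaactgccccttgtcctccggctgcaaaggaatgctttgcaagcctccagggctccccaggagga
Hc: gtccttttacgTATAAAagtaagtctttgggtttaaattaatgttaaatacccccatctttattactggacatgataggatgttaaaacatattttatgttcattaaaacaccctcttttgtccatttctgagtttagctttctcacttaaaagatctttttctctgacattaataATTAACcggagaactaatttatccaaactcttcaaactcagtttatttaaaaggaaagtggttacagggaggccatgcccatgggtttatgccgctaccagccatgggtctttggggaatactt

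The C9 window held a C/EBP-type site that began 132 bases before the start and an HNF4-type element that began 120 bases before it. C/EBP factors, HNF1 and HNF4 are transcription factors of the liver. The same window held CCAAT boxes at 206 and 72 bases before the start. The Hc window held an HNF1-type element 74 bases before the start, and its TATA box lay at 239 bases, far upstream of where a TATA box usually acts. A promoter window was given for 6 of the 7 genes. The HNF1-type element was in 3 of the 6 windows (C8a, C8b and Hc), against 7.1% of all 32851 promoter windows of that length. The HNF4-type element was in 2 of 6 (C9 and Mbl2), against 14.4% of all windows. The CCAAT box was in 2 of 6 (C8b and C9), against 37.4%. The C/EBP-type site was in 1 of 6 (C9), against 10.8%, and the TATA box in 1 of 6 (Hc), against 13.6%. The C9 window was 42.7% G and C and the Hc window 34.7%, against a median of 52.7% over all windows. All 6 windows lay between 34.7% and 50.3% G and C, and the shares over all windows were not matched for this content. The motifs were chosen after the windows had been read, so these counts cannot serve as a test of enrichment. These are matches of letters and were not tested as binding sites.

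All values below are log2 intensities from deposited values whose medians were nearly equal on all arrays, and differences are ASO minus saline from limma with n = 5 mice per group. The number of arrays limits the precision. On saline replicate 1 the brightest value was 542, against 1198 to 2333 on the other 9 arrays, and the abundant hepatocyte transcripts Alb, Apoa1 and Serpina1e crowded between 8.86 and 8.89 on the log2 scale there. The complement genes stayed below that range on this array, where their highest value was 7.95 (C8b). Still, C8b, Cfb and C9 had their lowest saline value on this array, and Mbl2 had its highest. Without this array the log2 fold change was -0.55 for C8b, -0.14 for Cfb, -1.11 for C9 and -0.55 for Mbl2. On the first principal component of all probes the ASO arrays lay between 5.37 and 76.5, except ASO replicate 5 at -27.0, inside the saline range of -76.5 to -1.07.

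All 7 complement genes had a lower mean in ASO livers than in saline livers, and none passed the adjusted threshold. The lower means ranged from 49.0% of the saline level for the pore protein C9 to 94.6% for the alternative-route protease Cfb. Their median log2 fold change was -0.68, against -0.0029 over all 36088 probes tested. At the limma adjusted p threshold of 0.05, 0 of 7 were called (smallest adjusted p = 0.185), against 0.0637% of all probes. At an unadjusted limma p under 0.05, 2 of 7 (C9 and Hc) were lower in ASO livers, against 6.66% of all probes. ASO and saline mice did not overlap in the same 2 genes, against 1.43% of all probes that were lower without overlap. A negative fold change, found in 7 of 7, was found in 50.3% of all probes.

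The complement probes are bright, and bright probes as a class were shifted downward on these arrays. Among the 2870 probes at least as bright on average as the dimmest of the 7 (C6, mean log2 intensity 4.95), the median log2 fold change was -0.11 and 62.3% were negative. In that class 11.1% were lower at an unadjusted limma p under 0.05, and 2.26% were lower with no overlap between groups. Without saline replicate 1 all 7 genes were still lower in the mean, with a median of -0.55. Quantile normalization gave a median of -0.51 and cyclic loess -0.58.

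**Figure D1:**
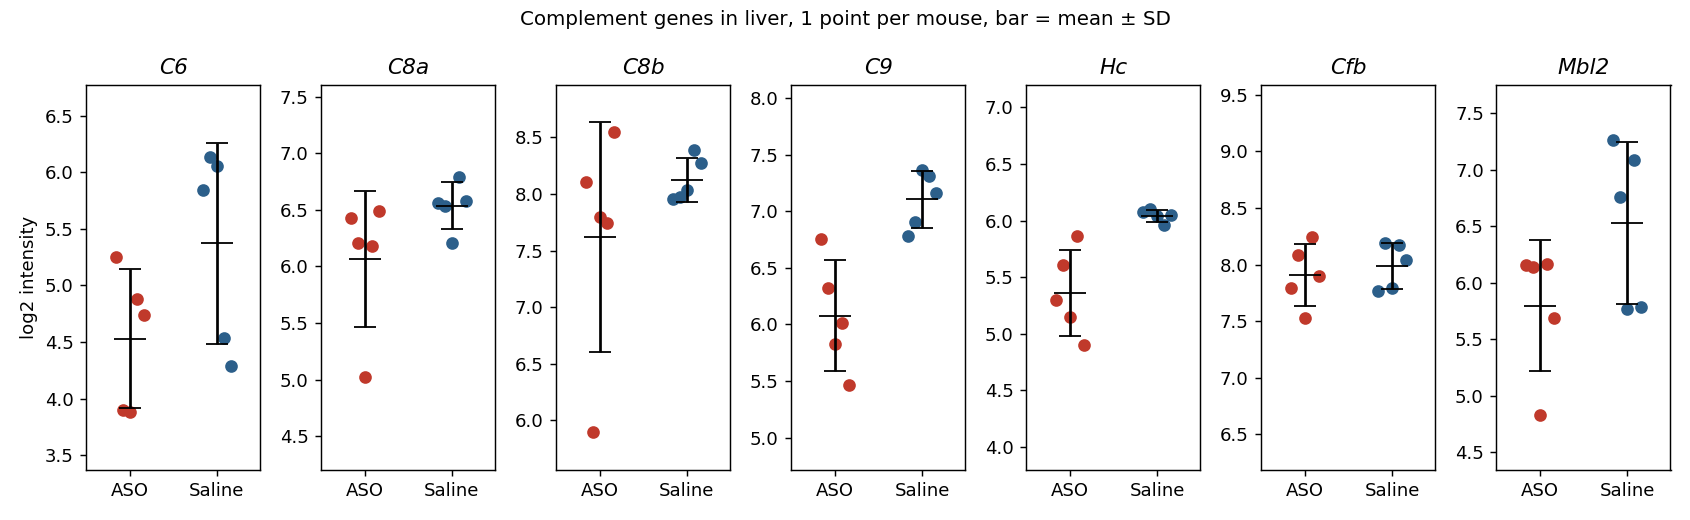
Log2 intensity of 7 complement genes, with ASO mice (red) left of saline mice (blue) and a panel per gene. Each point is a mouse, the long tick is the group mean and the bar is the SD (n = 5 per group). All panels span the same number of log2 units, so spreads can be compared between panels. The ASO points lie wholly below the saline points for C9 and Hc and overlap them for the other genes.

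C9 had the largest difference of the 7 genes. It encodes the protein that polymerises into the wall of the membrane attack pore. Its log2 intensity was 6.75, 6.32, 5.83, 6.01 and 5.47 in ASO mice 1 to 5, against 6.78, 6.91, 7.36, 7.31 and 7.16 in saline mice 1 to 5. Every ASO mouse lay below every saline mouse, although ASO replicate 1 (6.75) and saline replicate 1 (6.78) were separated by only 0.026. The mean was 6.08 ± 0.49 in ASO livers and 7.10 ± 0.25 in saline livers (SD, n = 5 each). The log2 fold change was -1.03 ± 0.24 (SE), which puts ASO livers at 49.0% of the saline level (95% interval 34.0% to 70.8%). The limma p was 0.00121 and the limma adjusted p 0.185. ASO mice spread over 1.28 log2 units, against 0.59 in saline mice.

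C6, C8a and C8b encode the terminal factors that assemble before C9. In C6, the log2 intensity was 5.25, 3.90, 3.88, 4.88 and 4.74 in ASO mice, against 5.85, 6.13, 6.06, 4.54 and 4.28 in saline mice. Saline replicates 4 and 5 lay within the range of the ASO mice, and the other saline mice lay above all of it. The mean was 4.53 ± 0.61 in ASO livers and 5.37 ± 0.89 in saline livers, a difference of -0.84 ± 0.42 (SE, adjusted p = 0.483 in limma). The 95% interval of this difference, -1.76 to 0.078, included 0.

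C8a and C8b, which encode the alpha and beta chains of C8, lie next to each other on chromosome 4. The log2 intensity of C8a was 6.42, 6.21, 5.02, 6.18 and 6.49 in ASO mice, against 6.56, 6.54, 6.21, 6.79 and 6.58 in saline mice. ASO replicate 3 stood far below the other mice, and the remaining ASO mice reached into the saline range or just under it. The log2 fold change of C8a was -0.47 ± 0.27 (SE, limma adjusted p = 0.540), and -0.21 without ASO replicate 3. C8b had a log2 intensity of 8.10, 5.90, 7.80, 7.75 and 8.55 in ASO mice, against 7.95, 7.97, 8.04, 8.39 and 8.27 in saline mice. Here ASO replicate 2 was the low mouse and ASO replicate 5 was above every saline mouse. The log2 fold change of C8b was -0.51 ± 0.40 (SE, limma adjusted p = 0.666), and -0.075 without ASO replicate 2. The low mice of the C8 chains were therefore different animals.

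Hc encodes C5, whose cleavage releases the chemoattractant C5a and begins pore assembly. Its log2 intensity was 5.30, 5.60, 5.15, 5.86 and 4.90 in ASO mice, against 6.08, 6.10, 6.04, 5.96 and 6.05 in saline mice. The saline mice lay within 0.14 log2 units of each other, the narrowest range of the 7 genes in either group, and every ASO mouse was below them. The highest ASO mouse (replicate 4) was 0.097 under the lowest saline mouse (also replicate 4). The mean was 5.36 ± 0.38 in ASO livers and 6.04 ± 0.054 in saline livers (SD, n = 5 each). The log2 fold change was -0.68 ± 0.19 (SE), which puts ASO livers at 62.3% of the saline level (95% interval 46.6% to 83.4%). The limma p was 0.00417 and the limma adjusted p 0.246.

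The lectin Mbl2 and the protease Cfb belong to the routes that lead to C3. Mbl2 had a log2 intensity of 6.16, 6.14, 4.83, 6.17 and 5.69 in ASO mice, against 7.27, 6.76, 5.76, 7.08 and 5.78 in saline mice. Saline replicates 3 and 5 lay among the ASO mice, and saline replicates 1, 2 and 4 lay above all of them. The log2 fold change of Mbl2 was -0.73 ± 0.36 (SE, limma adjusted p = 0.482), with a 95% interval of -1.53 to 0.063. Cfb had a log2 intensity of 7.79, 8.08, 7.53, 8.24 and 7.90 in ASO mice, against 7.76, 8.19, 7.79, 8.17 and 8.04 in saline mice. These groups lay on top of each other, and the log2 fold change was -0.081 ± 0.18 (SE, limma adjusted p = 0.900). Its 95% interval, -0.48 to 0.32, corresponds to 71.8% to 124% of the saline level, so differences within that range in either direction were not excluded. Without ASO replicate 3 the value for Cfb was 0.014, with the sign turned.

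**Figure D2:**
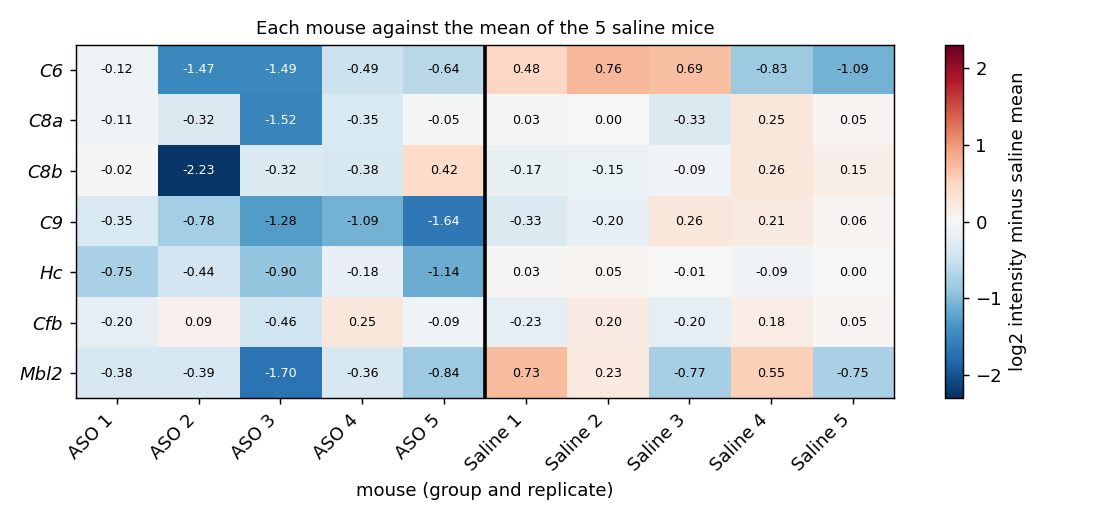
Each cell gives the log2 intensity of a gene (rows) in a mouse (columns, ASO left of the black line and saline right of it) minus the mean of the 5 saline mice. Blue is below that mean and red above. ASO replicate 3 is low in most rows, the lowest C8b value is in ASO replicate 2, and the saline row of Hc is almost uncoloured.

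The lower ASO means did not come from the same mice in each gene. Averaged over the 7 genes, the ASO mice lay at -0.27, -0.79, -1.10, -0.37 and -0.57 relative to the saline mean, in order of replicate, and the saline mice lay between -0.22 and 0.13. ASO replicate 3 had the lowest value of its group in 4 genes (C6, C8a, Cfb and Mbl2), ASO replicate 5 in 2 (C9 and Hc) and ASO replicate 2 in 1 (C8b). ASO replicates 1 and 4 were lowest in 0 genes. With the group means removed, Pearson's r between genes across the 10 mice had a median of 0.10 over the 21 gene pairs and ranged from -0.56 for Hc with C8b to 0.67 for C8a with Mbl2. C9 and Hc had an r of 0.33 (Spearman's rho 0.18). The C8 chains had an r of 0.091 and a rho of 0.50. Each of these points shares its array and RNA with the others of that mouse, and the coefficients are given as descriptions.

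The genes outside complement whose pattern over the 10 mice was most like the mean of the 7 genes, with group means removed from both, were Ubn1 (Pearson's r = 0.94), Mcpt2 (0.94), Commd9 (0.93), Fam25c (0.92) and Pcyt2 (0.92). They are the top 5 of 11406 probes searched, so high coefficients are built into the choice. Between groups, Pcyt2, an enzyme of phosphatidylethanolamine synthesis, differed by -0.998 ± 0.33 on the log2 scale (SE, adjusted p = 0.297 in limma). Fam25c was at -0.75 ± 0.27 (limma adjusted p = 0.333), whereas Ubn1, a histone chaperone subunit, was at -0.013 ± 0.26 (limma adjusted p = 0.992).

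Of 46 other complement genes listed, 36 were measured and 0 passed the limma adjusted threshold, against 0.0637% of all probes. The 36 had a median log2 fold change of -0.09, and 23 of 36 were negative, against 50.3% of all probes. At an unadjusted limma p under 0.05, 4 were lower in ASO livers (Masp1, Cpn1, C5ar2 and Itgb2), against 6.66% of all probes, and 0 higher, against 4.58% of all probes. In 0 of the 36 did the groups lack overlap, where 1.43% of all probes were lower without overlap. The 36 were not chosen by the cell that makes them, and their median mixes unlike roles. By role it was -0.16 for recognition molecules and starting proteases, -0.18 for other central and alternative factors and -0.33 for soluble regulators. It was -0.04 for membrane regulators and 0.11 for receptors. Masp1 (-1.005), Cpn1 (-0.73), Itgb2 (-0.72), Cfp (-0.67), C1qa (-0.67) and C4bp (-0.66) were near the median of the 7 genes or below it. Whether the 7 genes differ from these 36 as a class was not tested.

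Among the recognition molecules and starting proteases, Masp1, the protease that partners with mannose-binding lectins, differed by -1.005 ± 0.37 on the log2 scale (SE, adjusted p = 0.357 in limma). Its log2 intensity was 5.43, 5.36, 4.99, 4.95 and 4.63 in ASO mice, against 7.12, 6.57, 6.35, 4.99 and 5.34 in saline mice. As in C6, saline replicates 4 and 5 lay with the ASO mice and saline replicates 1 to 3 lay above them. A second, dimmer Masp1 probe gave -0.19 ± 0.43. Mbl1, the other mouse mannose-binding lectin, was at -0.56 ± 0.34 and C1qa, a chain of the classical-route starter C1q, at -0.67 ± 0.41. Macrophages are the usual source of C1q.

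Among the other central and alternative factors, properdin (Cfp), which stabilises the alternative convertase, was at -0.67 ± 0.64. C2, the protease of the classical and lectin convertase, was at -0.18 ± 0.22. C4a, a near-identical copy of C4b whose signal may be shared with it, was at -0.06 ± 0.20. The C4a probe had a mean log2 intensity of 0.14, near the median of all probes (0.031). Soluble regulators were lower in the mean for 5 of 6, against 50.3% of all probes, with a median of -0.33. Cpn1, the catalytic subunit of the carboxypeptidase that inactivates C3a and C5a, was at -0.73 ± 0.32 (SE, limma adjusted p = 0.428). C4bp, which binds C4b and limits the classical convertase, was at -0.66 ± 0.31 (limma adjusted p = 0.461), and Cfi, the protease that degrades C3b and C4b, at -0.32 ± 0.19.

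Membrane regulators were split evenly around 0 (3 of 6 negative). Cd59a, which blocks C9 insertion on host cells, was at -0.48 ± 0.27, and Cd59b and Cd55b were at -0.09 each. Cd55b was at the intensity floor in 2 ASO and 2 saline mice, so its difference was poorly measured. Of the receptors, 4 of 9 were negative. C5ar2, the alternative C5a receptor, was at -0.59 ± 0.20 (SE, limma adjusted p = 0.301), and Itgb2, the common chain of complement receptors 3 and 4, at -0.72 ± 0.29 (limma adjusted p = 0.394). Cd93, a receptor of endothelial and myeloid cells, was at 0.65 ± 0.34. The receptors C5ar1 and C3ar1 were at 0.16 ± 0.29 and 0.15 ± 0.31.

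**Figure D3:**
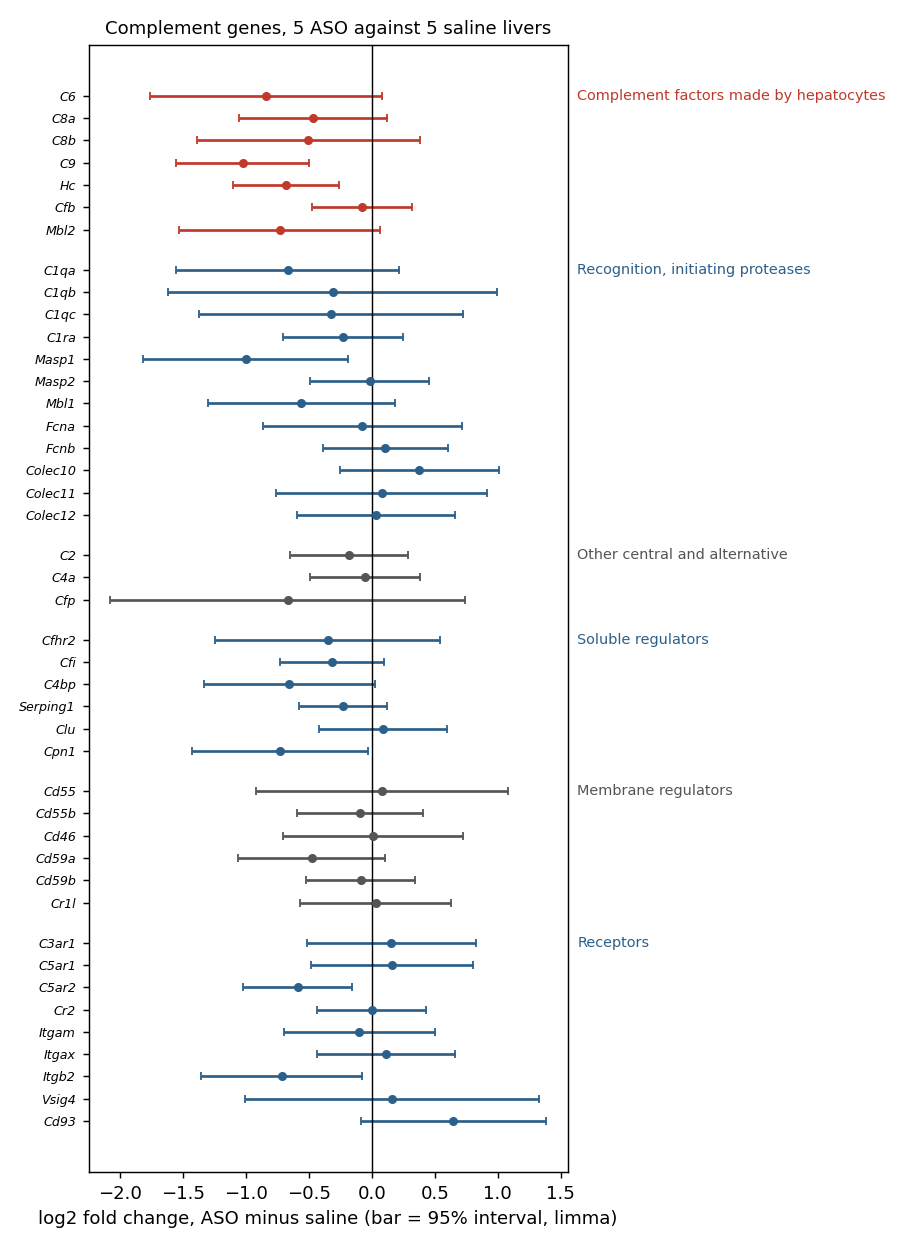
Log2 fold change of ASO against saline livers for the 7 hepatocyte complement factors (red, top) and 36 other measured complement genes by role (blue and grey), with 95% limma intervals. Among the red points only the intervals of C9 and Hc lie wholly below 0. Among the other genes those of Masp1, Cpn1, C5ar2 and Itgb2 also lie wholly below 0, and none lies wholly above it.

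Regulators of hepatic complement transcription and the cytokine receptors that feed them were also read. Of 16 measured genes, 0 passed the limma adjusted threshold, against 0.0637% of all probes. Their median was -0.06 and 9 of 16 were negative, against 50.3% of all probes. Stat3, which carries the interleukin-6 signal, was at -0.75 ± 0.28 (SE, limma adjusted p = 0.358) on its brightest probe, and at -0.47 ± 0.25 and -0.23 ± 0.27 on the others. Ifngr1, a chain of the interferon gamma receptor, was at -0.56 ± 0.23, and Il1rap, the interleukin-1 receptor accessory protein, at -0.47 ± 0.21 on its brightest probe. Dimmer Il1rap probes gave -0.95 ± 0.30 and -0.34 ± 0.21. Hnf4a was at -0.13 ± 0.18, Cebpa at 0.13 ± 0.20 and Cebpb at 0.20 ± 0.25.

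Set beside other secreted liver proteins, the 7 complement genes had the lower median (-0.68). Coagulation factors and inhibitors had a median log2 fold change of -0.36 with 12 of 14 negative and 0 passing the limma adjusted threshold. F9, Pros1 and Plg, named for the smallest limma p, were at -0.79 ± 0.22, -0.996 ± 0.29 and -0.50 ± 0.22. F5 (0.21) and Serpinc1 (0.12) were higher in the mean. Acute phase proteins had a median of -0.22 with 9 of 13 negative and 0 passing. Cp, Fga and Orm1, named for the smallest limma p, were at -0.75 ± 0.25, -0.64 ± 0.24 and -0.85 ± 0.33. Fgb (0.42), Saa2 (0.03), Saa3 (0.11) and Saa4 (0.07) were higher in the mean, and Orm2 was at -0.005. Over all probes, 50.3% were negative and 0.0637% passed. Among probes at least as bright as the dimmest of the 7 genes, 62.3% were negative. The differences between these lists were not tested, and they share the same 10 mice. The set and the lists were chosen with earlier results of these data known, and they were not matched for signal level.

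In whole liver RNA, fewer cells of a type and less RNA per cell cannot be told apart. Hepatocyte markers were higher in the mean for 8 of 9 measured, with a median of 0.43 (0.19 without saline replicate 1). Their summed intensity was 8775 to 11724 in ASO mice, against 3964 to 10036 in saline mice, where the lowest was 6650 without saline replicate 1. The means of these markers, with Arg1 the exception, lay on the opposite side of saline from those of the 7 complement genes. Arg1 was at -0.32 ± 0.16 and had a mean log2 intensity of 7.87, against 9.64 to 10.1 for the other markers. The 7 complement genes had mean log2 intensities of 4.95 to 7.95. Whether the contrast follows signal level was not tested. Macrophage (Kupffer cell) markers were lower in 7 of 10 measured, median -0.26, with sums of 59.4 to 178 in ASO mice against 102 to 213 in saline mice. Lymphocyte markers were dim and lower in 5 of 8 measured, median -0.16, with sums of 9.42 to 10.7 in ASO mice against 11.2 to 14.1 in saline mice, which did not overlap. The brightest of them, Cd79a, weighs most in that sum and was at -0.51 ± 0.23. Cd79b was at -0.25 ± 0.20, Ms4a1 at -0.57 ± 0.16, Klrb1c at -0.91 ± 0.36 and Cd8a at -0.06 ± 0.41. Cd3d, Cd3e and Nkg7 were higher in the mean. Cd3e was at the intensity floor in 2 ASO and 4 saline mice, and Klrb1c in 2 ASO mice. Over all probes, 50.3% had a negative fold change. The summed endothelial, stellate, bile duct and red blood cell markers overlapped between groups. None of these markers was at the floor on all arrays, and the part of cell composition in the complement values was not tested.

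**Figure D4:**
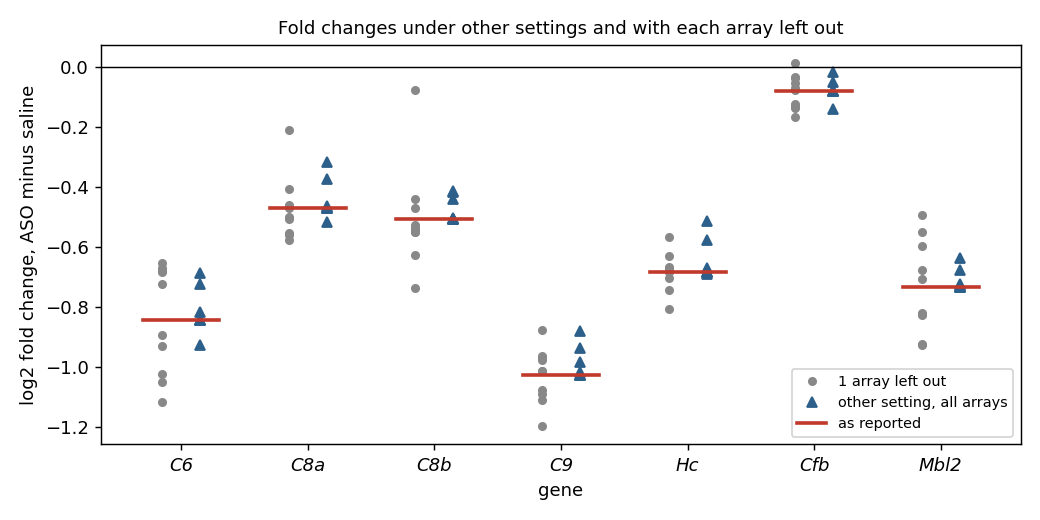
Log2 fold change (ASO minus saline) of each complement gene as reported (red line), with each array left out in turn (grey circles) and under the other settings with all arrays (blue triangles). C9 stays between -1.20 and -0.88 and Hc between -0.81 and -0.51, whereas C8b reaches -0.075 and Cfb crosses 0 when a single ASO array is left out.

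C9 and Hc kept an unadjusted limma p under 0.05 with each of the 10 arrays left out (at most 0.00399 for C9 and 0.0110 for Hc), and neither passed the adjusted threshold in any of these fits. The count of complement genes lower at an unadjusted p under 0.05 was 4 without saline replicate 5, where C6 and Mbl2 joined, against 6.6% of all probes in that fit. It was between 2 and 3 without any other array, against 4.6% to 8.41% of all probes.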

How the data were processed

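The deposited values are intensities on a linear scale from CodeLink arrays with biotin label, per the labels' protocols, and their medians were 1.03 to 1.05 on all arrays. The software, background subtraction and scaling are steps not given in the sources used here. Each array had 74 to 377 values of 0 or less. Of 36227 probes, 139 with fewer than 3 values in a group were left out. Values below the 10th percentile of positive values (0.192) were set to it before log2. No complement factor of the set was near that floor. Differences were fitted over all 36088 probes with limma 3.58.1 in R 4.3.3 (lmFit, eBayes), without covariates, with two-sided tests, p-values adjusted by Benjamini-Hochberg over all probes and a threshold of 0.05. Labels do not say whether mice shared a cage or batch. Genes were named from single-gene probes of the platform annotation, and the brightest probe stood for a gene. Named were all complement factors of the set, up to 3 genes with the smallest p from each role or list, and the 5 closest patterns. Hnf4a, Cebpa, Cebpb, C5ar1 and C3ar1 were named after their values were seen. The set, lists and tests were chosen with earlier results of these data known, and the motifs after the windows had been read. The fit was tested on simulated data.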

Additional observations from a re-analysis of the deposited data

Results flagged for a closer look

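C8a in ASO replicate 3 stood apart from the other ASO mice, with a log2 intensity of 5.02 against 6.18 to 6.49, a gap beyond Dixon's 95% critical value for 5 samples (0.710). It was 1 of 14 groups examined (7 genes, ASO and saline), and chance marks about 1 in 20. The same mouse had the lowest ASO value in C6, Cfb and Mbl2. The low C8b value of ASO replicate 2 (5.90) did not exceed that critical value.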

How the results depend on the processing

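In all 17 alternative fits, 0 of the 7 complement genes passed the adjusted limma threshold, with a smallest adjusted p of 0.0922 (C9 without ASO replicate 1). Their median log2 fold change lay between -0.81 and -0.55 with an array left out and between -0.69 and -0.51 under the other settings. The fold change of each gene kept its sign in every fit except Cfb, which ranged from -0.16 to 0.014 with an array left out and was 0.014 without ASO replicate 3. The number of complement genes lower at an unadjusted p under 0.05 was 4 with trend and robust eBayes (against 6.91% of all probes) and 2 to 4 with an array left out (against 4.6% to 8.41%). Over all probes, 23 passed the adjusted threshold (0.0637%), 39 under cyclic loess, 7 with no floor, 73 with only probes above the median level, 42 with trend and robust eBayes and 0 to 16 with an array left out (0 without ASO replicate 3 or without saline replicate 2). The cause was not tested. No paired analysis was possible because the labels carry no replicate numbers shared by ASO and saline mice. A gene with 1 probe has the same value when its probes are averaged, as was the case for all 7. No value of these genes was at the floor.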
